A study of Mus musculus with 6 samples.

Results

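The platelet-derived growth factor (PDGF) family of the mouse, as chosen here, is made up of 6 genes, taken by symbol from a table of 21999 genes. The ligands are encoded by *Pdgfa*, *Pdgfb*, *Pdgfc* and *Pdgfd*, and the receptors by *Pdgfra* and *Pdgfrb*. They were read in RNA of cultured lung microvascular endothelial cells. Of these, 3 isolations came from *Ptprz1*+/+ mice, and 3 came from *Ptprz1*-/- mice, which lack the receptor-type tyrosine phosphatase PTPRZ1. Mice of both genotypes were of the SV129/B6 strain, and the cells were untreated. The lungs of 2 to 5 mice, aged 3 to 8 weeks, were pooled for each isolation, so a library is a pool and not 1 animal. The minced and collagenase-digested tissue was grown in serum with endothelial growth supplement and heparin until confluent. Cells were then taken with magnetic beads carrying an antibody to CD31, the protein of *Pecam1*. The comparison of the genotypes asks which transcripts differ when PTPRZ1 is missing.

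PDGF ligands are secreted dimers that bring receptor tyrosine kinases together at the cell surface. PDGF-A and PDGF-C act mainly through the alpha receptor, PDGF-D mainly through the beta receptor, and PDGF-B through both. PDGF-C and PDGF-D are released with a CUB domain that must be cut off before they can bind. In vessels, PDGF-B made by endothelial cells recruits pericytes and smooth muscle cells, which carry the beta receptor, and in the lung PDGF-A acts on fibroblasts that carry the alpha receptor. The family is thus usually split between cell types, with ligand and receptor on neighbouring cells.

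The region before the start of *Pdgfra* and *Pdgfd* is shown because these genes were at opposite ends in one and the same library, *Ptprz1*+/+ replicate 2. Windows of 250 bases before a RefSeq start (GRCm38.p6) were read for 4 of the 6 genes. They were searched on both strands for TATAAA, known as the TATA box, and for GGGCGG, known as the GC box. The further motifs were CCAAT, named for its letters, and TGANTCA, the site bound by the factor AP-1. The last was CANNTG, the E-box, in which N stands for any base. Capitals mark the matches, which do not overlap one another. The first window is on the plus strand at chr5:75152001-75152250 and the second on the plus strand at chr9:6168236-6168485.
*Pdgfra*: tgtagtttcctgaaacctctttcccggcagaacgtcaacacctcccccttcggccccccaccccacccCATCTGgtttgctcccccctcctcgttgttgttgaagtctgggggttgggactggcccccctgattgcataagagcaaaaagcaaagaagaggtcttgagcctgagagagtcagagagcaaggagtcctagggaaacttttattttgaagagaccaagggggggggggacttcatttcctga
*Pdgfd*: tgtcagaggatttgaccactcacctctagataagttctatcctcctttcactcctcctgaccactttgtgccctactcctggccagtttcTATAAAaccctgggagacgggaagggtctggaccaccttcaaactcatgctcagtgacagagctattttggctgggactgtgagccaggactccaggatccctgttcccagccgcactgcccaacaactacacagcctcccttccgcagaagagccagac
The *Pdgfd* window holds 1 TATAAA, which begins 160 bases before the start, and that motif is in 12.4% of all 32851 windows of this length. The *Pdgfra* window holds 1 E-box, which begins 182 bases before the start, and 66.2% of windows hold one. The *Pdgfc* window holds none of the 5 motifs. Of the pair of *Pdgfa* windows, which belong to separate starts, one holds 1 GC box and the other 2, against 32.7% of windows with at least one, and they have a GC content of 66.4% and 72.4%, against a median of 52.4%. The matches describe the letters of these windows, and no binding was measured.

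The libraries held between 14496881 and 17709663 reads counted on genes. Levels are given as CPM, the counts that would be found in 1000000 reads of a library whose size was scaled by edgeR's TMM method. Values are listed by replicate number, 1 to 3. The targeted gene, *Ptprz1*, had 197, 1837 and 508 counts in the *Ptprz1*+/+ libraries and 1138, 1320 and 895 in those with the *Ptprz1*-/- label. It did not separate the genotypes, so the directions given here rest on the labels. The 12 endothelial markers summed to 41.9 to 586.0 CPM with *Ptprz1*+/+ and 26.5 to 186.6 CPM with *Ptprz1*-/- as the label. Their log2 fold change was below 0 in 12 of 12 (median -1.43), and none was at 0 in all libraries. Unadjusted p-values ran from 0.0815 (*Vwf*) to 0.684 (*Esam*) by edgeR's quasi-likelihood test. All 12 were highest in *Ptprz1*+/+ replicate 3, so the shared sign is not 12 separate results. By the sum, replicate 3 was the highest of each genotype, with *Pecam1* at 90.9 and 32.4 CPM, against 1.36 to 4.39 in the other 4 libraries, and *Cdh5* (VE-cadherin) at 198.5 and 61.2 CPM, against 3.59 to 14.3. The 10 fibroblast markers summed to 17080 to 25640 CPM and 10870 to 27080 CPM in the same order, above the endothelial sum in each library. Their sum, too, was highest in replicate 3 of each genotype (25640 and 27080 CPM). Of the 10 markers, 2 were at their highest in *Ptprz1*+/+ replicate 3 and 3 in *Ptprz1*-/- replicate 3. In bulk RNA, fewer cells of a type and less RNA per cell cannot be told apart.

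The genes lie on 5 chromosomes (positions on GRCm38, as the deposited table gives them). *Pdgfa* (ENSMUSG00000025856) is on the minus strand of chromosome 5 from 138976014 to 138997370. *Pdgfb* (ENSMUSG00000000489) is on the minus strand of chromosome 15 from 79995900 to 80014808. *Pdgfc* (ENSMUSG00000028019) is on chromosome 3 from 81036416 to 81214040, and *Pdgfd* (ENSMUSG00000032006) on chromosome 9 from 6168612 to 6378843. *Pdgfra* (ENSMUSG00000029231) is on chromosome 5 from 75152291 to 75198204, and *Pdgfrb* (ENSMUSG00000024620) on chromosome 18 from 61045150 to 61085061. Each receptor gene sits beside another gene of the same receptor class with 0 protein-coding genes between them in GENCODE M21, *Kit* at a gap of 376711 bases from *Pdgfra* and *Csf1r* at a gap of 20510 bases from *Pdgfrb*. In that annotation, *Pdgfa* shares 813 exonic bases with the antisense gene *6330403L08Rik*, which had 247 to 402 counts, *Pdgfc* shares 147 with *Gm16000*, and *Pdgfra* shares 456 with *Gm42802* and 166 with *Gm42803*. The counts of these members are uncertain to that extent, because the use of strand in counting is not given in the sources used here.

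Across the 6 genes, no difference between the genotypes exceeded the spread between libraries. All 6 passed edgeR's filter on low counts, and 0 of the 6 had an adjusted p under 0.05 by the quasi-likelihood test of edgeR, adjusted after Benjamini-Hochberg over the 13609 genes tested, where the share of all genes called was 0%. At an unadjusted p under 0.05 it was again 0 of 6, against 2.69% of all genes (1.13% higher and 1.56% lower). At an adjusted p under 0.05, DESeq2, limma voom and edgeR's likelihood ratio test also called 0 of 6. Of all genes tested, DESeq2 called 0.22% at that threshold, the likelihood ratio test called 17 genes and voom 0. In 0 of the 6 did the groups lie apart without overlap, against 7.28% of all genes. The log2 fold change (*Ptprz1*-/- over *Ptprz1*+/+) was above 0 in 3 genes and below 0 in 3, with a median of -0.059, against -0.0047 over all genes tested. In each of the 6 it was smaller than its standard error.

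**Figure D1:**
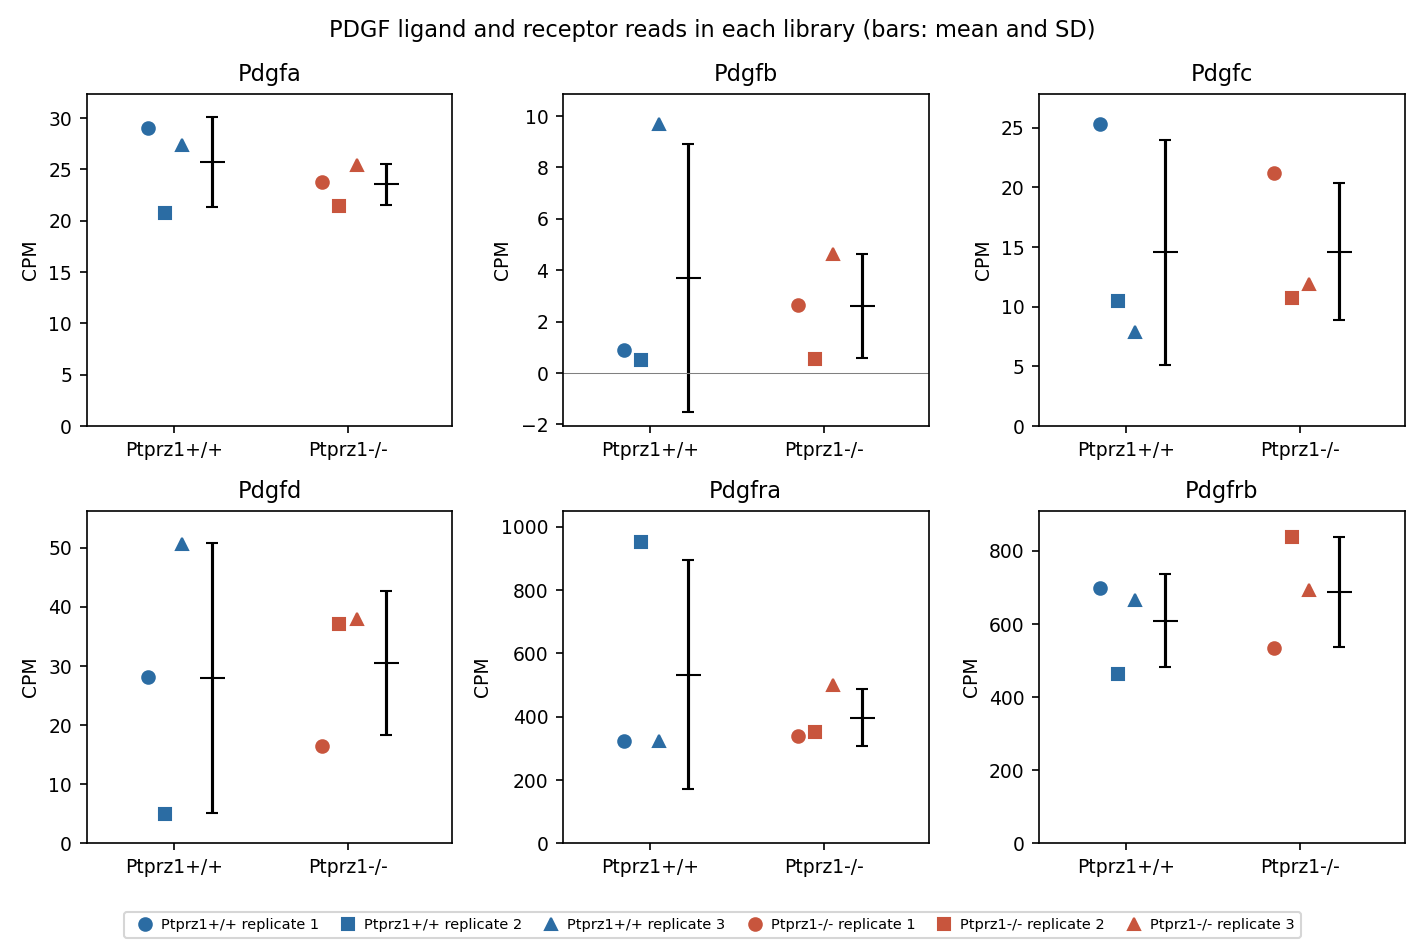
CPM of the 6 PDGF genes in each library, with 1 panel per gene, the genotype on the x axis, symbols for replicates 1 to 3 and bars for mean ± SD (n = 3). The genotypes overlap in all 6 panels, and single libraries stand far from the others, such as *Ptprz1*+/+ replicate 3 for *Pdgfb* (9.70 CPM) and *Ptprz1*+/+ replicate 2 for *Pdgfra* (952.0 CPM).

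*Pdgfrb*, the beta receptor that marks pericytes, smooth muscle cells and fibroblasts, had the highest level of the family. It was at 699.5, 464.0 and 665.0 CPM among the *Ptprz1*+/+ libraries, against 534.2, 836.9 and 692.4 CPM among those with the *Ptprz1*-/- label. The lowest value was in *Ptprz1*+/+ replicate 2 and the highest in *Ptprz1*-/- replicate 2, a span of 1.80-fold, and the groups overlapped. The means were 609.5 ± 127.2 and 687.8 ± 151.4 CPM (SD, n = 3 each), and the log2 fold change was 0.17 (standard error 0.25; edgeR quasi-likelihood, adjusted p = 1.00). Per kilobase of gene length, it ranked between 401 and 739 among the 21999 genes of each library. In both libraries numbered 3, which had the highest endothelial marker sums, it was within the range of the others.

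*Pdgfra*, the alpha receptor of fibroblasts, was more uneven. It was at 323.6, 952.0 and 324.1 CPM among the *Ptprz1*+/+ libraries, against 339.9, 351.6 and 501.0 CPM among those with the *Ptprz1*-/- label. One library, *Ptprz1*+/+ replicate 2, stood far above the others, the next being *Ptprz1*-/- replicate 3, and the lowest 2 values were also *Ptprz1*+/+. The means were 533.2 ± 362.7 and 397.5 ± 89.8 CPM (SD, n = 3 each), with a log2 fold change of -0.42 (standard error 0.47; edgeR quasi-likelihood, adjusted p = 1.00). Without *Ptprz1*+/+ replicate 2 the sign turned, to 0.29, so the direction rests on that library. The same library had the lowest sum of the 12 mural cell markers (443.2 CPM, against 847.8 to 4083 in the others), but the markers did not move as one. The smooth muscle genes *Acta2* and *Tagln* made up 70.1% of that sum and 81.2% to 93.4% of it elsewhere, whereas *Cox4i2* and *Kcnj8*, which mark pericytes, were highest in this library (22.3 and 11.6 CPM). The pericyte genes *Rgs5* (2.415 CPM, against 2.441 in *Ptprz1*-/- replicate 3) and *Abcc9* (7.80 CPM, against 11.9 there) were not. Of the 10 fibroblast markers, 3 were highest in this library and 1 was lowest. *Dcn* was at 1657 CPM (289.3 to 1288 in the others). *Lum* (129.7, next 128.9) and *Fbln1* (274.7, next 266.9) were barely ahead. The fibroblast marker sum there, 17080 CPM, was within the range of the others. The part of cell composition in the *Pdgfra* value was not tested.

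The receptors were therefore not in a fixed proportion. Per length, *Pdgfra* was at 0.382, 1.69 and 0.402 times *Pdgfrb* among the *Ptprz1*+/+ libraries, against 0.525, 0.347 and 0.597 times among those labelled *Ptprz1*-/-. In 5 of the 6 libraries the beta receptor led, and in *Ptprz1*+/+ replicate 2 the alpha receptor held 62.9% of the summed receptor level. The log2 ratio differed between the genotypes by -0.42 (standard error 0.74; exact two-sided permutation test, p = 0.80, adjusted p = 1.00 over 4 ratios), and 3 libraries against 3 cannot give a p below 0.10.

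Among the ligands, *Pdgfa* was the steadiest. It was at 29.0, 20.8 and 27.4 CPM among the *Ptprz1*+/+ libraries, against 23.8, 21.5 and 25.5 CPM among those with the *Ptprz1*-/- label. The values span 1.40-fold, and the 3 libraries labelled *Ptprz1*-/- lie inside the range of the *Ptprz1*+/+ libraries. The means were 25.7 ± 4.36 and 23.6 ± 2.01 CPM (SD, n = 3 each), with a log2 fold change of -0.13 (standard error 0.17; edgeR quasi-likelihood, adjusted p = 1.00).

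*Pdgfb*, the ligand that endothelial cells use to recruit mural cells, had the lowest level of the 6 genes and the widest spread. Its reads numbered 15, 9 and 154 in the *Ptprz1*+/+ libraries and 43, 8 and 70 in the libraries with the *Ptprz1*-/- label. Scaled, this was 0.905, 0.494 and 9.70 CPM, and 2.66, 0.549 and 4.62 CPM. The highest library of each genotype was replicate 3, and the lowest was replicate 2. In replicate 3 the summed endothelial and the summed fibroblast markers of each genotype were highest too. The third in order was *Ptprz1*-/- replicate 1, whose endothelial marker sum (36.4 CPM) was below that of *Ptprz1*+/+ replicates 1 and 2 (42.6 and 41.9). The part of endothelial or fibroblast content in these values was not tested.

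The direction of *Pdgfb* depended on how the libraries were weighed. The mean was higher in the *Ptprz1*+/+ libraries (3.70 ± 5.20 against 2.61 ± 2.03 CPM, SD, n = 3 each) and the median was lower (0.905 against 2.66). The log2 fold change was -0.50 (standard error 1.21; edgeR quasi-likelihood, adjusted p = 1.00). It was 1.89 without *Ptprz1*+/+ replicate 3 and 1.20 with both libraries numbered 3 left out. These fits did not pass the threshold either.

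*Pdgfc* was highest in replicate 1 of both genotypes. It was at 25.3, 10.5 and 7.88 CPM among the *Ptprz1*+/+ libraries, against 21.3, 10.8 and 11.9 CPM among those with the *Ptprz1*-/- label. The smooth muscle genes *Acta2* (2155 and 1634 CPM) and *Tagln* (1348 and 1873 CPM) were also highest in these libraries and carried the summed mural cell markers to 3749 and 4083 CPM, against 443.2 to 1304 in the other 4. *Cnn1* (73.8 and 84.7 CPM, at most 15.9 elsewhere) and *Myh11* (48.9 and 40.6 CPM, at most 28.4 elsewhere) were likewise highest in these libraries. The list as a whole did not follow them. Of its 12 markers, 3 were highest and 5 lowest in *Ptprz1*-/- replicate 1, and 2 were highest in *Ptprz1*+/+ replicate 1. Among the 5 lowest were the pericyte genes *Rgs5* (0.310 CPM), *Kcnj8* (3.35) and *Abcc9* (1.43). The part of smooth muscle or pericyte content was not tested. The means of *Pdgfc* were 14.5 ± 9.39 and 14.6 ± 5.76 CPM (SD, n = 3 each), and the log2 fold change was 0.0087 (standard error 0.50; edgeR quasi-likelihood, adjusted p = 1.00).

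*Pdgfd* encodes the other ligand with a CUB domain. It was at 28.2, 5.00 and 50.7 CPM among the *Ptprz1*+/+ libraries, against 16.5, 37.1 and 38.0 CPM among those with the *Ptprz1*-/- label. The values of *Ptprz1*+/+ replicates 2 and 3, the lowest and the highest of all, are 10.1-fold apart, and the libraries labelled *Ptprz1*-/- lie between them. As with *Pdgfb*, replicate 3 was the highest of each genotype, but *Ptprz1*-/- replicate 2, with the lowest endothelial marker sum (26.5 CPM), was close to it. That library also had the lowest fibroblast marker sum (10870 CPM). The part of endothelial or fibroblast content was not tested. The means were 27.9 ± 22.8 and 30.5 ± 12.2 CPM (SD, n = 3 each), with a log2 fold change of 0.13 (standard error 0.76; edgeR quasi-likelihood, adjusted p = 1.00). The sign turned in 3 of the 6 fits that left out 1 library, with a lowest value of -0.37 without *Ptprz1*+/+ replicate 2. That library held the lowest value of *Pdgfd*, *Pdgfa*, *Pdgfb* and *Pdgfrb* and the highest of *Pdgfra*.

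**Figure D2:**
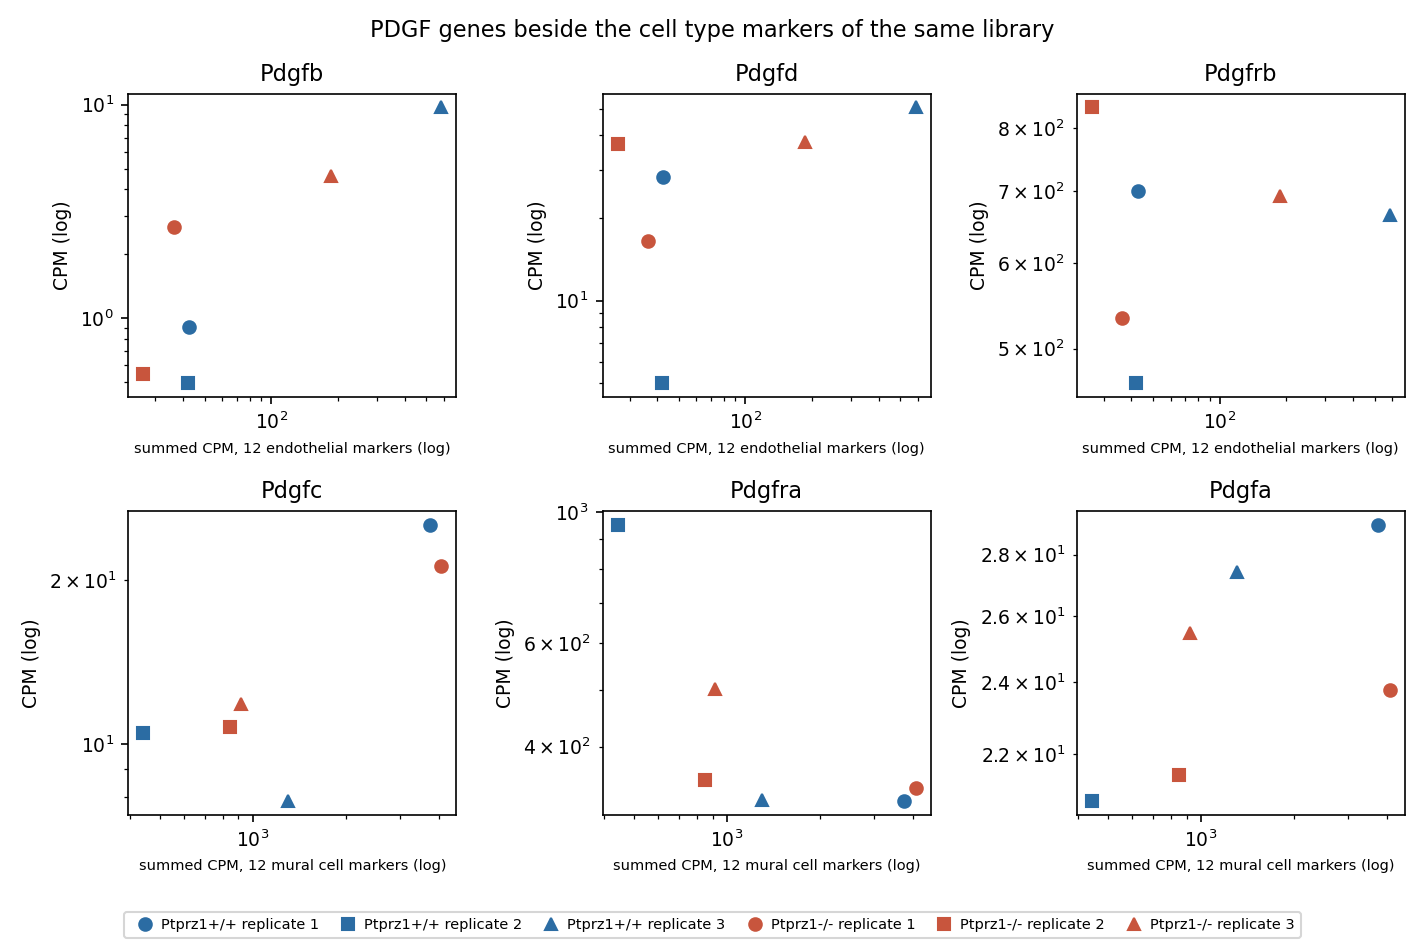
CPM of each PDGF gene (y axis, log scale) against the summed CPM of 12 endothelial markers (upper row, 3 genes) or 12 mural cell markers (lower row, 3 genes) in the same library (x axis, log scale), 1 point per library, coloured by genotype. *Pdgfb* was highest in the 2 libraries with the most endothelial marker reads (9.70 and 4.62 CPM), and *Pdgfc* in the 2 with the highest mural cell marker sum (25.3 and 21.3 CPM), a sum that rests mostly on *Acta2* and *Tagln*. The 2 libraries with the most endothelial marker reads also had the highest fibroblast marker sums (25640 and 27080 CPM), which are not drawn.

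The spread between libraries was wide for most of the family. The SD of log2 CPM over the 6 libraries was 0.19 for *Pdgfa*, 0.31 for *Pdgfrb*, 0.62 for *Pdgfra*, 0.65 for *Pdgfc*, 1.22 for *Pdgfd* and 1.76 for *Pdgfb*. The median over the 13559 tested genes with counts in each library was 0.29, and 5 of the 6 genes were above it. Within the genotypes the pooled SD was as wide, at 1.96 for *Pdgfb* and 1.32 for *Pdgfd*.

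**Figure D3:**
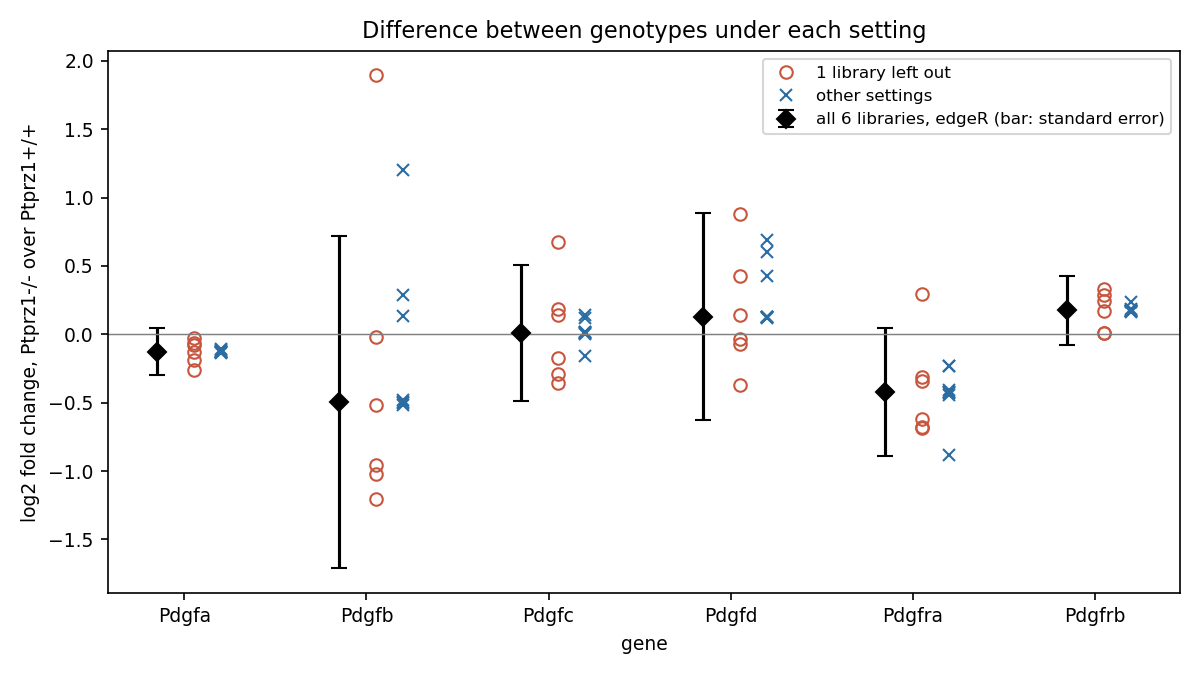
Log2 fold change of each PDGF gene (*Ptprz1*-/- over *Ptprz1*+/+, y axis) from all 6 libraries (diamond, bar for the standard error), from the fits with 1 library left out (circles) and from the other settings (crosses). *Pdgfb* ranges from -1.20 to 1.89 with 1 library left out, whereas *Pdgfa* and *Pdgfrb* keep their sign.

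To set the genes in order, counts were divided by the gene length of the deposited table. The mean level over the 6 libraries was 119.6 ± 24.4 CPM per kilobase for *Pdgfrb*, 70.8 ± 37.7 for *Pdgfra*, 11.97 ± 1.58 for *Pdgfa*, 9.58 ± 5.38 for *Pdgfd*, 4.14 ± 1.98 for *Pdgfc* and 1.08 ± 1.23 for *Pdgfb* (SD, n = 6). Both receptors were above all 4 ligands in all 6 libraries. Neighbouring pairs were taken from the order of the mean log2 levels in these same libraries, so each mean step is positive by construction. The tests of the steps are therefore no independent support for the order. The gap between the lower receptor and the first ligand was 2.45 on the log2 scale (SD 0.75, *Pdgfra* over *Pdgfa*, higher in 6 of 6 libraries; exact two-sided sign-flip permutation test, p = 0.0313, the smallest that 6 libraries allow, adjusted p = 0.156 over 5 neighbouring pairs).

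The other neighbours in the order were closer or more variable. *Pdgfrb* was above *Pdgfra* in 5 of 6 libraries, *Pdgfa* above *Pdgfd* in 3, *Pdgfd* above *Pdgfc* in 4 and *Pdgfc* above *Pdgfb* in 5. By the exact sign-flip permutation test these gave p = 0.0938, 0.25, 0.188 and 0.0625, and adjusted p = 0.156, 0.25, 0.234 and 0.156, so none of the 5 steps passed after adjustment. With the summed exon length of GENCODE M21 as the divisor, *Pdgfa* and *Pdgfd* were nearly level (0.079 on the log2 scale, against 0.63). The step from *Pdgfrb* to *Pdgfra* widened from 0.86 to 1.45, that from *Pdgfd* to *Pdgfc* widened as well, and *Pdgfra* then held 52.9% of the receptor level in *Ptprz1*+/+ replicate 2 and 18.7% to 28.3% in the others.

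**Figure D4:**
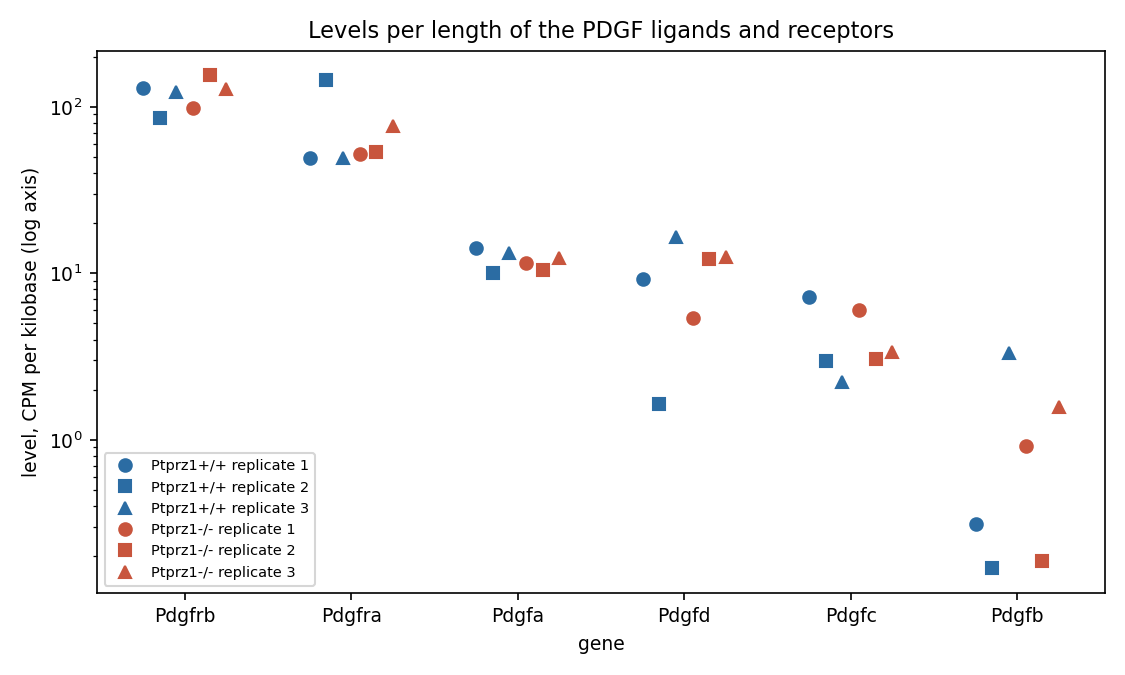
Level per length of the PDGF genes (CPM per kilobase of gene length, log axis), 1 point per library, in the order of their mean log2 level. Both receptors lie above the 4 ligands in each library, and *Pdgfb* spans from 0.169 to 3.33 CPM per kilobase.

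The ligands together were at 30.8, 14.9 and 35.5 CPM per kilobase among the *Ptprz1*+/+ libraries, against 23.9, 25.8 and 29.8 among those labelled *Ptprz1*-/-. This was 0.0646 to 0.206 of the summed receptor level, lowest in *Ptprz1*+/+ replicate 2. *Pdgfa* held between 37.5% and 67.9% of the ligand sum, *Pdgfd* at most 47.1%, with its lowest share in *Ptprz1*+/+ replicate 2, *Pdgfc* between 6.31% and 25.3% and *Pdgfb* between 0.728% and 9.38%. The ratio of ligands to receptors, on the log2 scale, differed between the genotypes by 0.11 (standard error 0.53; exact two-sided permutation test, p = 1.00, adjusted p = 1.00).

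Within the ligands that bind the alpha receptor, *Pdgfa* was above *Pdgfc* in all 6 libraries, by 1.91-fold in *Ptprz1*-/- replicate 1 to 5.95-fold in *Ptprz1*+/+ replicate 3. Within those that bind the beta receptor, *Pdgfb* was below *Pdgfd* in all 6, at 0.0155 times its level in *Ptprz1*-/- replicate 2 and 0.200 times in *Ptprz1*+/+ replicate 3. The log2 differences between the genotypes were -0.24 (standard error 0.55) for *Pdgfa* to *Pdgfc* and -0.36 (standard error 1.32) for *Pdgfb* to *Pdgfd*. Each gave p = 0.80 in the exact two-sided permutation test (adjusted p = 1.00).

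**Figure D5:**
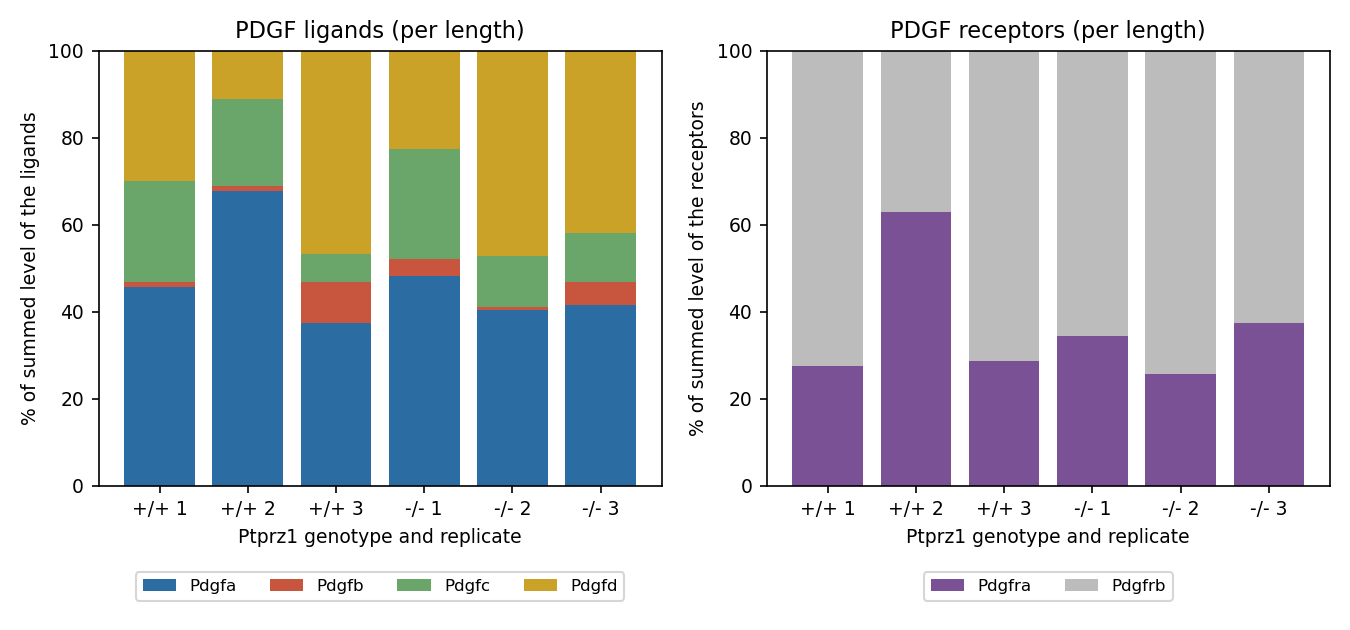
Share of each ligand in the summed ligand level (left) and of each receptor in the summed receptor level (right), in percent of CPM per kilobase, 1 bar per library. *Pdgfa* and *Pdgfd* make up most of the ligand level in each library, and *Ptprz1*+/+ replicate 2 is the 1 library in which *Pdgfra* exceeds *Pdgfrb* (62.9% of the receptor level).

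For each member, the genes with the most similar profile were found by the root mean square difference of centred log2(CPM + 1) over the 6 libraries. They were picked as the closest of all tested genes, so they lie below the median by construction, and likeness was not tested. For *Pdgfb* these were *Fgd5* (0.309), *Mmrn1* (0.312) and *Ccdc80* (0.313), where the median over all tested genes was 1.08. *Fgd5* was at 14.0 and 6.53 CPM in the libraries numbered 3 and at 0.411 to 1.98 in the others. For *Pdgfd* they were *Gyg* (0.183), *Itga8* (0.280) and *Ly6a* (0.284), against a median of 1.07. For *Pdgfra* they were *Catip* (0.121), *H2afv* (0.134) and *Dnmt1* (0.147), against 0.609, and *Dnmt1* was at 120.9 CPM in *Ptprz1*+/+ replicate 2 and at 45.3 to 58.4 in the others. For *Pdgfc* they were *Nmi* (0.122), *Eml5* (0.169) and, between them, *Recql4*, against 0.597. The flatter profiles of *Pdgfa* (*Nacad*, *Foxred1* and *Foxp2*, at 0.0424 to 0.0514) and *Pdgfrb* (*Tada2b*, *Acvr2a* and *Mtmr10*, at 0.0647 to 0.0678) had closer neighbours, against medians of 0.289 and 0.369.

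Outside the cell, PDGF is cut and bound by proteases and matrix proteins. Of 12 such genes, 11 were tested and 0 passed an adjusted or an unadjusted p under 0.05, with 3 log2 fold changes above 0, 8 below 0 and a median of -0.091, against -0.0047 over all genes. *Sparc*, a matrix protein that binds PDGF, and *Thbs1*, thrombospondin-1, had the highest levels per length, at 1475 ± 343 and 531.4 ± 274.5 CPM per kilobase (SD, n = 6). The lowest p-values of the list were those of *Plau*, the urokinase that can cut PDGF-D (45.0 ± 27.6 against 17.7 ± 14.1 CPM; log2 fold change -1.34, standard error 0.73), *Pdgfrl* (35.3 ± 6.38 against 48.6 ± 22.3 CPM; 0.46, standard error 0.34) and *Pcsk6*, a proprotein convertase (16.0 ± 14.0 against 37.2 ± 35.7 CPM; 1.22, standard error 0.97), with SD over n = 3 libraries each. Their groups overlapped, and each had an adjusted p of 1.00 (edgeR quasi-likelihood). The value of *Pcsk6* was 0.053 without *Ptprz1*-/- replicate 1 and 2.07 without *Ptprz1*+/+ replicate 1. That of *Pdgfrl* was 0.043 without *Ptprz1*-/- replicate 3 and 0.73 without *Ptprz1*-/- replicate 1. That of *Plau* was -0.78 without *Ptprz1*+/+ replicate 3 and -2.18 without *Ptprz1*-/- replicate 3. At the larger value of each, edgeR's quasi-likelihood test gave an unadjusted p of 0.109 (*Pcsk6*), 0.0436 (*Pdgfrl*) and 0.0277 (*Plau*).

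Inside the cell, the activated receptors are read by adaptors and kinases. Of 23 such genes, transcription factors included, 22 were tested and 0 passed an adjusted or an unadjusted p under 0.05, with 11 above 0, 11 below 0 and a median log2 fold change of 0.0069. *Grb10* and *Shc1*, adaptors that bind the activated receptor, had the highest levels (112.3 ± 16.0 and 108.7 ± 16.9 CPM per kilobase, SD, n = 6). *Pik3r2*, a regulatory subunit of phosphatidylinositol 3-kinase, was the 1 gene of the list whose groups did not overlap, where 3.56% of all genes lay apart in that direction. It was at 123.3, 133.8 and 130.4 CPM among the *Ptprz1*+/+ libraries, against 136.3, 143.0 and 144.9 CPM among those with the *Ptprz1*-/- label, a log2 fold change of 0.13 (standard error 0.11; edgeR quasi-likelihood, adjusted p = 1.00). *Nck2* and *Pik3ca* had the next lowest p-values, with log2 fold changes of -0.27 (standard error 0.28) and 0.11 (standard error 0.12).

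Of 11 genes for phosphatases, ubiquitin ligases and scaffolds that bind or switch off PDGF receptors, all 11 were tested, 0 passed an adjusted or an unadjusted p under 0.05, and the median log2 fold change was -0.021 (4 above 0, 7 below 0). *Slc9a3r1*, the scaffold NHERF1, was at 87.0, 50.5 and 61.3 CPM among the *Ptprz1*+/+ libraries, against 301.3, 60.2 and 125.2 CPM among those with the *Ptprz1*-/- label. Its log2 fold change was 1.29 (standard error 0.57), short of an unadjusted p under 0.05 here but past it with DESeq2, with the likelihood ratio test, with no filter on low counts and without *Ptprz1*-/- replicate 2. It was 0.49 without *Ptprz1*-/- replicate 1, where the 6 mesothelial markers also had their highest sum (1378 CPM, against 55.7 to 279.0 in the others). The part of mesothelial content was not tested. *Ptprj*, a receptor-type phosphatase that acts on PDGF receptors, was at 32.2 ± 4.84 and 40.2 ± 5.01 CPM, and *Cbl*, a ubiquitin ligase, at 19.2 ± 4.49 and 15.6 ± 0.423 (SD, n = 3 each). The log2 fold changes were 0.32 (standard error 0.17) and -0.30 (standard error 0.21), and all 3 had an adjusted p of 1.00 (edgeR quasi-likelihood). *Ptpn12*, with the second highest level of the list, gave a log2 fold change of 0.081 (standard error 0.21).

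The neighbours of the receptor genes, which arose with them from common ancestors, were far lower than the PDGF receptors. *Kit*, the receptor for stem cell factor, was at 4.95, 4.61 and 19.7 CPM among the *Ptprz1*+/+ libraries, against 11.7, 3.77 and 18.6 CPM among those with the *Ptprz1*-/- label. As with *Pdgfb*, the libraries numbered 3 were highest, and *Kit* gave a log2 fold change of 0.22 (standard error 0.76). *Csf1r*, the receptor for CSF-1 on macrophages, had 52, 64 and 83 counts in the *Ptprz1*+/+ libraries and 25, 28 and 30 in those labelled *Ptprz1*-/-, or 3.96 ± 1.11 against 1.82 ± 0.233 CPM (SD, n = 3 each).

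The groups of *Csf1r* did not overlap (exact two-sided permutation test, p = 0.10, the smallest possible), as was so for 3.73% of all genes in that direction. The log2 fold change was -1.12 (standard error 0.32), where edgeR's quasi-likelihood test gave an adjusted p of 1.00 and the unadjusted one was 0.0107. *Csf1r* shares 873 exonic bases with *Hmgxb3*, a protein-coding gene on the opposite strand, which had 644 to 783 counts, so its low count is uncertain if strand was not used. The leukocyte markers summed to 10.0 to 45.7 CPM with *Ptprz1*+/+ and 8.64 to 20.6 CPM with *Ptprz1*-/- as the label, and their part was not tested. *Pdgfrb*, its neighbour at 20510 bases, gave a log2 fold change of 0.17.

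Among the related receptors and ligands as a whole, 10 of 12 genes were tested, with 0 past the adjusted threshold and a median log2 fold change of -0.073. *Flt3* and *Vegfd* were not found under these symbols in the deposited table. At an unadjusted p under 0.05, where 2.69% of all genes passed, 2 of the 10 did: *Csf1r* was lower and *Vegfb*, a ligand of the related VEGF family, was higher (95.6 ± 10.8 against 132.4 ± 15.1 CPM, SD, n = 3 each; log2 fold change 0.47, standard error 0.14; edgeR quasi-likelihood, adjusted p = 1.00). The groups of *Vegfb* did not overlap, as was so for 3.56% of all genes in that direction. Neither passed the unadjusted threshold with both libraries numbered 3 left out (log2 fold change -0.94 and 0.49), nor did *Vegfb* without *Ptprz1*+/+ replicate 3 (0.41) or *Ptprz1*-/- replicate 2 (0.38). *Il34*, another ligand of CSF1R, had the third lowest p, with a log2 fold change of -0.40 (standard error 0.46). *Csf1* and *Vegfa* had the highest levels per length, at 217.4 ± 92.4 and 122.6 ± 32.6 CPM per kilobase (SD, n = 6).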

How the data were processed

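RNA of 3 *Ptprz1*+/+ and 3 *Ptprz1*-/- isolations of lung microvascular endothelial cells was sequenced. The authors deposited whole-number counts of reads per gene and library, not normalized, and FPKM values, which equal the authors' counts over gene length and library sum and served as an alternative scale for the order of the genes. The deposited table also holds the authors' mean signal per genotype and their own comparison (log2 fold changes, p-values and adjusted p-values), which were not used. The 3 shorter lists of called genes were not used either. Per the submitters' processing notes, STAR, HTSeq, TopHat, DESeq2 and edgeR were used with GRCm38 (mm10). Versions, roles and the use of strand are not given in the sources used here.

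The test was the quasi-likelihood test of edgeR 4.0.16 (R 4.3.3; TMM, filterByExpr, genotype as the only term, Benjamini-Hochberg over 13609 genes, threshold 0.05). The standard error was taken as the size of the fold change (log2) over the square root of the F statistic. The other tools were DESeq2 1.42.0 and limma 3.58.1. The functions were tested on simulated counts. Single values and ratios were compared by exact two-sided permutation, with 4 ratios and 5 neighbouring pairs each adjusted together. As the isolations are the replicates, p-values measure the spread between isolations, in which mice, culture and cell selection are not separated. Depth was 14496881 to 17709663 counts, and *Pdgfb* rests on as few as 8 reads.

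The members and lists were chosen with earlier results of these data known. The text names the 6 members, *Ptprz1*, *Kit*, *Csf1r*, per member the 3 genes most alike in profile (predicted genes left out), per list the 3 with the lowest p and the 2 with the highest level, and some of the fixed markers. Alternatives were other tools, normalizations and filters, the replicate number as a block, and each library left out. Leaving out both libraries numbered 3 and the GENCODE M21 exon length were added after the data were seen. Of 7 marker lists, the epithelial markers summed to 0.960 to 3.72 CPM and those of megakaryocytes and platelets to 8.86 to 10.2 CPM over all libraries, and the others are given beside the results. Promoter windows are from RefSeq.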

Additional observations from a re-analysis of the deposited data

How the results depend on the processing

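The 6 PDGF genes stayed short of the threshold in all 83 alternative fits (lowest adjusted p 0.803), with 12 turns of sign. With 1 library left out, the log2 fold change ranged from -0.26 to -0.029 for *Pdgfa*, from -1.20 to 1.89 for *Pdgfb*, from -0.36 to 0.67 for *Pdgfc*, from -0.37 to 0.88 for *Pdgfd*, from -0.68 to 0.29 for *Pdgfra* and from 0.0083 to 0.33 for *Pdgfrb*. *Pdgfb* also turned with limma voom (0.28), with the replicate block (0.14) and with both libraries numbered 3 left out (1.20), which turned *Pdgfc* too (-0.16) and gave -0.88 for *Pdgfra* and 0.69 for *Pdgfd*. With at least 10 counts in every sample *Pdgfb* was not tested. The cause of the turns was not tested. The number of genes called was 0, but 30 with DESeq2 and 17 with the likelihood ratio test, and from 0 to 0 with 1 library left out. With 1 library left out, the log2 ratio difference ranged from -0.79 to 0.28 for *Pdgfra* to *Pdgfrb*, from -0.64 to 0.16 for *Pdgfa* to *Pdgfc*, from -1.06 to 0.73 for *Pdgfb* to *Pdgfd* and from -0.41 to 0.43 for ligands to receptors. In the same fits *Kit* ranged from -0.34 to 1.25, *Sparc* from -0.24 to 0.18, *Thbs1* from -0.78 to 0.33, *Shc1* from -0.26 to 0.039, *Ptpn12* from -0.14 to 0.22, *Csf1* from -0.41 to 0.38 and *Vegfa* from -0.35 to 0.11. *Sparc* also turned with no filter on low counts (0.00034), voom (0.017), the replicate block (0.026) and both libraries numbered 3 left out (0.10), *Csf1* with voom (0.063), the block (0.055) and both left out (0.32), and *Thbs1* with both left out (0.42). The replicate numbers were not taken as pairs, because the correlation of deviations from the genotype means was 0.462 and 0.527 for numbers 1 and 3 but -0.0598 for number 2. Between libraries of unlike number this correlation ranged from -0.58 to 0.0776. Whether libraries of the same number share a factor was not tested. With the replicate block, 690 genes had an unadjusted p under 0.05, against 366, and still 0 passed after adjustment. With this block, 2 extracellular genes and 2 of the phosphatases, ubiquitin ligases and scaffolds had an unadjusted p under 0.05, against 0 without it, among them *Plau* (-1.49, standard error 0.17, adjusted p = 0.538) and *Slc9a3r1* (1.03, adjusted p = 0.942). In the other settings 0 or 1 gene of each of these lists and of the signal relay did. The limits are 3 pools per genotype and, for *Pdgfb*, 8 and 9 reads in its lowest libraries.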
